A study of Rattus norvegicus with 12 samples.

Results

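The glycolysis and hypoxia response genes described here are 41 rat genes in 6 roles: glucose and lactate transport, glycolytic enzymes, the Pfkfb and Pdk families, the HIF pathway and targets of HIF. A gene was a member when its symbol was the gene name that the array files give to a probe. All 41 were on the array, read by 75 of 45598 rat probes, and all 41 were among the 20789 genes and other transcripts that were bright enough to be tested. The samples were calvarial bone (skull vault) of rats 10 weeks old, taken 24 h after surgery, with 4 arrays per group. The series title asks about lower Sost, the gene of the osteocyte Wnt inhibitor sclerostin, after ablation with an Er:YAG laser.

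In the laser group a bone defect of 8 by 3 mm was made by Er:YAG ablation in 3 strokes at 127 mJ per pulse. In the bur group a defect of the same area was made by drilling with a rotating bur. Control bone was stripped of its periosteum, the membrane that covers it, and was otherwise left whole. The labels give neither strain nor sex. Nor do they tie a sample to an animal, so the p-values cover the spread among samples, which may be technical. Of bone cell markers, 8 of 8 for osteoblasts and 6 of 7 for osteocytes were measured above background. So were 10 of 12 fast skeletal muscle markers and 9 of 11 neural and myelin markers. These counts therefore cannot test the tissue label.

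Glucose enters cells through transporters of the Slc2a family and is split by the glycolytic enzymes to pyruvate, which Ldha turns to lactate for export through monocarboxylate transporters. Pfkfb enzymes make the regulator fructose 2,6-bisphosphate, which sets the pace of glycolysis, and Pdk kinases shut off the entry of pyruvate into mitochondria. When oxygen is short, HIF (Hif1a or Epas1 paired with Arnt) escapes hydroxylation by the Egln enzymes and destruction through Vhl, and it raises transcription of many of these genes. Bone under repair is known as a tissue low in oxygen.

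HIF binds DNA at a core of ACGTG or GCGTG, so the 250 bases before the RefSeq gene starts (GRCr8 assembly) were searched for both motifs on both strands. RefSeq promoters were at hand for 38 of the 41 genes, 42 promoters in all. Either motif was present in 59.5% of these 42, against 36.7% of all 33469 promoters, while the median GC content was 63.0% against 51.2%. It was present in 13 of 22 promoters of genes that rose after drilling, in 10 of 16 of genes that did not pass the test and in 2 of 4 of genes that fell. The promoters shown are those of the genes with the largest rise after drilling (below), 5 of 6 of which had an entry. Capitals mark the matches, where CACGC is GCGTG and CACGT is ACGTG read on the other strand.
Slc2a1: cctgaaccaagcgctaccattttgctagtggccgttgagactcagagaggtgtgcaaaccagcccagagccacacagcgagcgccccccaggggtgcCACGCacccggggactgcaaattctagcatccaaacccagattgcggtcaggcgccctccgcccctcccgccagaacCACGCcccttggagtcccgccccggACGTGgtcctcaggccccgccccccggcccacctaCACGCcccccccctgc
Bnip3: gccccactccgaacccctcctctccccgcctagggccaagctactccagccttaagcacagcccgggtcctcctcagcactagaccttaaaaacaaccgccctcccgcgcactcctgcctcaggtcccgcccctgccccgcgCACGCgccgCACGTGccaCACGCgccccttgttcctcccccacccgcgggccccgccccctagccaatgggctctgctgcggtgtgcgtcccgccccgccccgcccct
Slc16a3: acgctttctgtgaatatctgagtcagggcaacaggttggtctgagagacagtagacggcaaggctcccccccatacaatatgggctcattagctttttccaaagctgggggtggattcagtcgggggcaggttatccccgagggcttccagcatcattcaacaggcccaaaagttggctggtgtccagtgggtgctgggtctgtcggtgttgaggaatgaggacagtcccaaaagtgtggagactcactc
Adm: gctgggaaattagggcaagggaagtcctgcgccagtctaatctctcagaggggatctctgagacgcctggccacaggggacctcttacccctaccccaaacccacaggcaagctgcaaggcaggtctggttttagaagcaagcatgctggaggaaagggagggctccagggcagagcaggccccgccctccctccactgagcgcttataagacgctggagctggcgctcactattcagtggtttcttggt
Tpi1: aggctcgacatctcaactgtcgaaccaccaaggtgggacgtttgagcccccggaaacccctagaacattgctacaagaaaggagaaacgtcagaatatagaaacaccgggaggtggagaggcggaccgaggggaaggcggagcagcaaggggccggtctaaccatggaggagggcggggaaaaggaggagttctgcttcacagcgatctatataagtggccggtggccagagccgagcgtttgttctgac
The Slc2a1 promoter (chr5:138002272-138002521, plus strand) held 4 matches, which begin 153, 76, 51 and 16 bases before the start. The Bnip3 promoter (chr1:203154963-203155212, minus strand) also held 4, at 108, 99, 98 and 90 bases, of which the 2 in CACGTG overlap because that run reads alike on both strands. The windows of Slc16a3 (chr10:106712078-106712327, plus), Adm (chr1:174179950-174180199, plus) and Tpi1 (chr4:159305089-159305338, minus) held none of these letters. The arrays did not measure binding at any of them. The array probe for Slc2a1 is listed at chr5:139718779-139718838 of the older rn4 build, that for Bnip3 at chr1:198683030-198683089 and that for Slc16a3 at chr10:110163119-110163178. No annotation of rn4 was used, so their place in an exon or UTR is not given.

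Levels below are log2 intensities after quantile normalisation. Values of a group follow the order of its arrays 1 to 4, and a difference of 1 is a change of 2-fold. Probes differ in how brightly they bind, so levels are compared between arrays and not between genes. A gene was called when limma's moderated test over all 12 arrays gave a Benjamini-Hochberg adjusted p under 0.05 over all 20789 features. The median processed signal of an array was 55.6 to 81.9 in the laser group, 18.6 to 28.3 in the bur group and 16.5 to 43.2 in the control group. The 4 laser arrays shared slide 2 and the other 8 arrays slide 1, so slide and laser treatment cannot be told apart. On slide 1 the first position number in the barcode of the file headers was 2 for the 4 bur arrays and 1 for the 4 control arrays. Bur treatment and this position therefore cannot be told apart either. In bulk bone, a change in the cells present and a change in RNA per cell cannot be told apart.

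Drilled bone had higher levels of 21 of the 41 genes than control bone, among them glucose and lactate transporters, most glycolytic enzymes and 3 HIF targets. In all 25 of the 41 were called, 21 higher and 4 lower, against 21.6% called, 11.4% higher and 10.2% lower, of all 20789 features. By role, 13 of 16 glycolytic enzymes were called, 3 of 4 transporters, 3 of 4 Pfkfb genes and 3 of 6 HIF targets. The 2 of 7 HIF pathway genes (28.6%) and 1 of 4 Pdk genes (25%) were near the 21.6% of all features. The median log2 fold change of the 41 was 0.75, against 0.01 over all features. For 18 genes all 4 bur arrays lay above all 4 control arrays, which held for 11.5% of all features, and for 4 genes all lay below, which held for 10.7%. When the bur and control arrays alone were fitted, 16 of the 25 were still called. The other 9 (Adm, Bnip3, Gpi, Hk3, Ldha, Ndrg1, Pfkfb2, Slc2a1 and Vhl) then had adjusted p between 0.0509 and 0.0972 with the same differences. In the authors' deposited table of this comparison, 18 were higher and 7 lower at an adjusted p under 0.05 of the 36 genes that it holds by the same probe. Of all 21080 entries of that table, 31.3% were called.

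**Figure D1:**
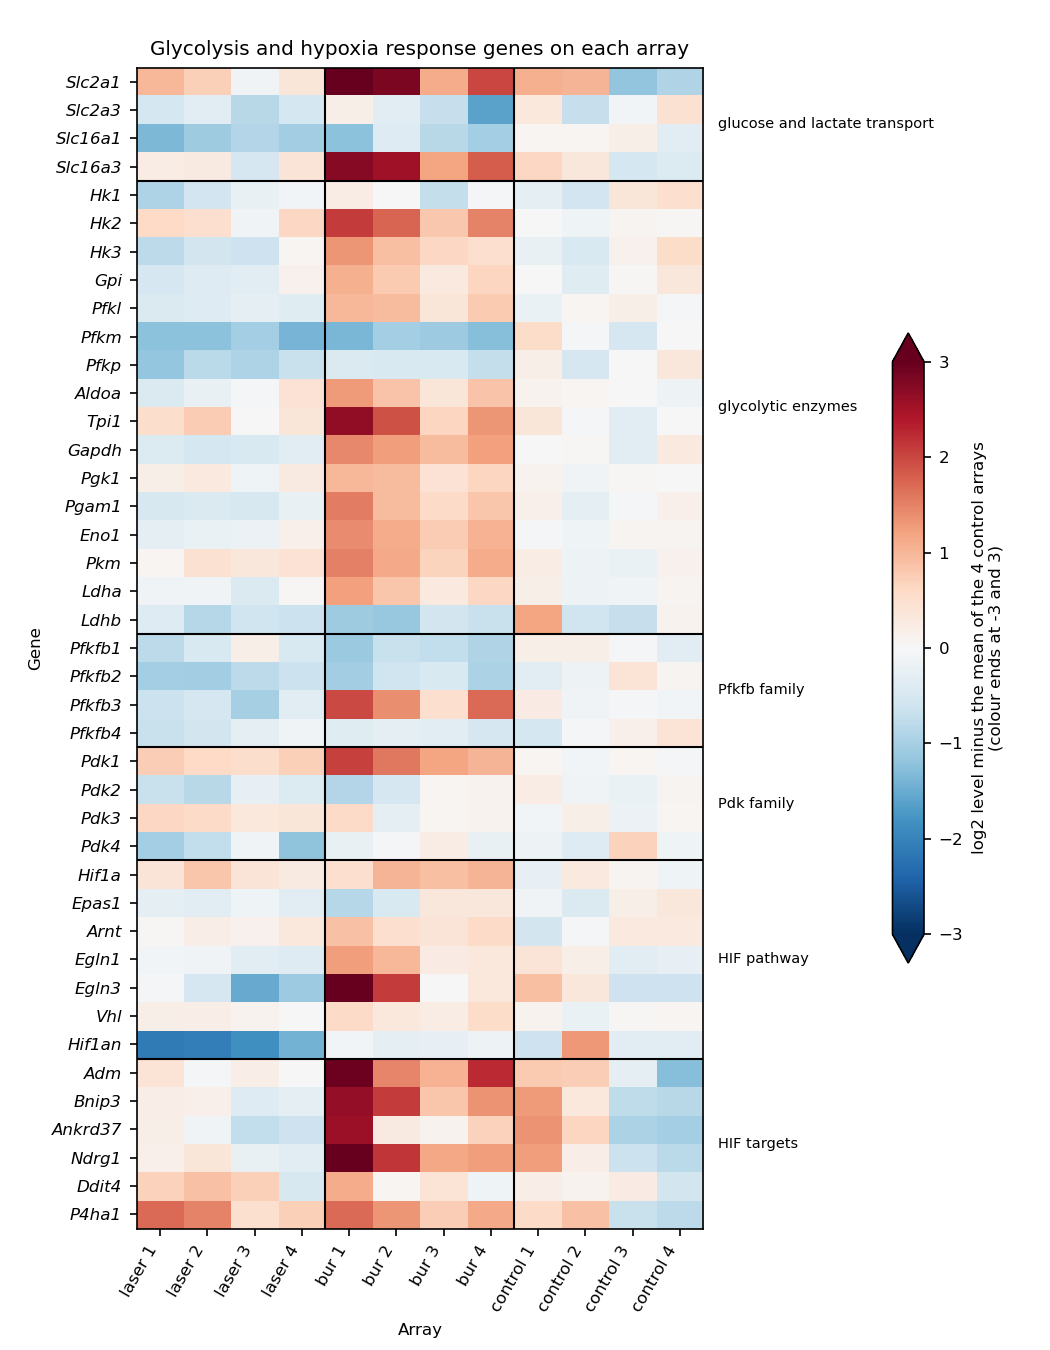
Level of each of the 41 genes (rows, by role) on each of the 12 arrays (columns), as the log2 level minus the mean of the 4 control arrays, with red for higher and blue for lower. The bur columns are red for the 21 genes that rose after drilling, most deeply on bur array 1, while the laser columns of most of these genes are pale.

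In laser-ablated bone few of these genes differed from control. Against control, 8 of the 41 genes were called, 1 higher (Pdk1) and 7 lower (Hif1an, Pfkm, Slc16a1, Pfkp, Pfkfb2, Pdk4 and Gapdh), while 35.8% of all features were called, 19.1% higher and 16.7% lower. Against bur, 22 were called and all 22 were lower, while 29.7% of all features were called, 14.2% lower and 15.5% higher. The median log2 fold change of the 41 was -0.28 for laser against control and -0.82 for laser against bur, with -0.003 and -0.02 over all features. All 4 laser arrays lay above all 4 control arrays for 2 genes (19.8% of all features) and below for 9 (17.6%). They lay below all 4 bur arrays for 22 genes (17.5% of all features) and above for 0 (17.3%). The bur and laser comparisons share the control arrays, and laser against bur shares the bur arrays, so the 3 results are not independent.

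The 21 genes higher in bur bone can be followed into the laser group. They were chosen for high bur levels and laser against bur uses the same bur arrays, so lower laser levels are favoured by the choice and the counts are a description. Of the 21, 19 were lower in laser than in bur bone, while 48.2% of all 2374 features called higher in bur than in control bone were lower and 5.9% higher. The other 2 of the 21 were Hif1a and Vhl. Against control the laser differences of the 21 lay between -0.63 and 0.65 on the log2 scale, 10 positive and 11 negative, and 19 were not called. Pdk1 was called higher and Gapdh lower. Of the 2374 features, 36.8% were called higher and 1.98% lower in laser than in control bone.

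**Figure D2:**
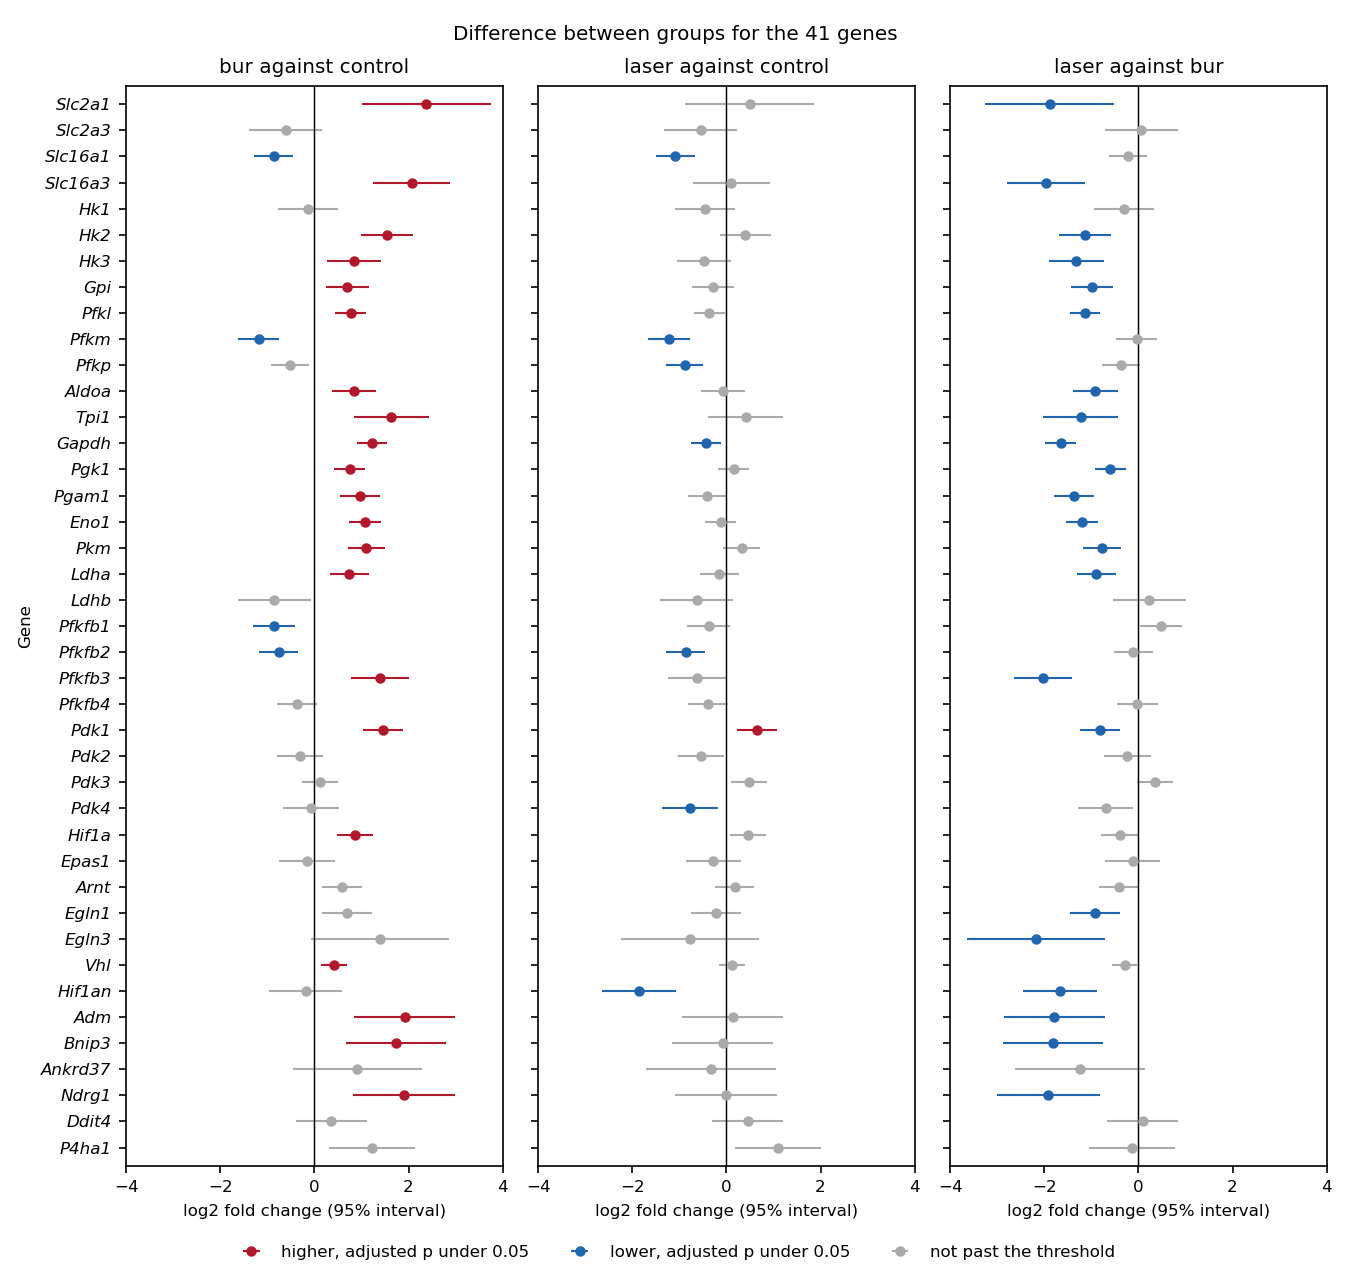
Difference between groups for all 41 genes as the log2 fold change with its 95% interval from limma (x axes), for bur against control, laser against control and laser against bur. Red and blue mark calls at an adjusted p under 0.05. Most bur differences lie right of 0, most laser against control intervals cover 0, and all 22 calls of laser against bur lie left of 0.

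Among transporters, the glucose importer Slc2a1 (GLUT1) and the lactate exporter Slc16a3 (MCT4) rose after drilling, and the lactate and pyruvate carrier Slc16a1 (MCT1) fell. The log2 level of Slc2a1 was 9.79, 9.52, 8.69 and 9.15 on laser arrays, 12.38, 11.61, 9.91 and 10.80 on bur arrays and 9.86, 9.81, 7.61 and 7.89 on control arrays. Every bur array lay above every laser and control array. The control arrays differed among themselves, with arrays 1 and 2 high and arrays 3 and 4 low.

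Slc2a1 was 5.21-fold higher in bur than in control bone (log2 difference 2.38 ± 0.62, SE, limma adjusted p = 0.019), the largest rise of the 41. That call was lost without bur array 1 (1.98, adjusted p = 0.0504) or control array 4 (2.08, 0.0521). Laser bone had 3.71-fold less than bur bone (-1.89 ± 0.62, adjusted p = 0.0403). This second call was lost in 7 of the 12 fits that leave out 1 array, with adjusted p up to 0.102, and without the filter on dim probes (0.0553). Laser against control gave 0.49 with a 95% interval of -0.87 to 1.86 (adjusted p = 0.567), which spans a fall and a rise.

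Slc16a3 read 10.94, 10.98, 10.21 and 11.10 on laser arrays, 13.44, 13.25, 11.88 and 12.51 on bur arrays and 11.32, 11.04, 10.17 and 10.29 on control arrays. The bur arrays stood clear of both other groups, which overlapped. The rise in bur bone was 4.19-fold (2.07 ± 0.37, limma adjusted p = 0.00317), and laser bone was 3.90-fold below bur bone (-1.96 ± 0.37, adjusted p = 0.00255). Laser and control differed by 0.10, with an interval of -0.72 to 0.92.

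Slc16a1 moved the other way. It read 8.03, 8.31, 8.51 and 8.34 on laser arrays, 8.16, 8.99, 8.54 and 8.38 on bur arrays and 9.45, 9.45, 9.57 and 9.07 on control arrays. All 8 arrays of treated bone lay below all 4 control arrays. The fall was 2.13-fold in laser bone (-1.09 ± 0.19, limma adjusted p = 0.00117) and 1.82-fold in bur bone (-0.87 ± 0.19, adjusted p = 0.00782), and laser against bur was not called (-0.22, interval -0.63 to 0.19). A second probe of Slc16a1 was also called lower in both. Slc2a3 (GLUT3) was not called in any comparison.

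The glycolytic enzymes formed the largest role, and 12 of 16 rose after drilling while 1 fell. The 12 were Hk2, Hk3, Gpi, Pfkl, Aldoa, Tpi1, Gapdh, Pgk1, Pgam1, Eno1, Pkm and Ldha. Between them they cover the steps from glucose phosphorylation (Hk2, Hk3) to lactate (Ldha). Their log2 fold changes lay between 0.70 (Gpi) and 1.64 (Tpi1). All 12 were lower in laser than in bur bone, by 0.60 to 1.65 on the log2 scale in size. The smallest of these, Pgk1, was not called with 75th percentile scaling (-0.42, limma adjusted p = 0.0865) or with the authors' deposited values in the same test (-0.40, adjusted p = 0.0953). Ldha (-0.89) was not called with the mean of its 3 probes (-0.56, adjusted p = 0.0574), 1 of which gave 0.14. Against control the same 12 lay between -0.47 and 0.41 in laser bone by their brightest probes. The 3 Eno1 probes ran between -0.13 and 0.85 there, and 1 was called higher. For laser against bur 2 of the 3 Eno1 probes were called lower, over -1.20 to -0.36.

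Tpi1 (triose phosphate isomerase) had the largest rise of the enzymes. It read 9.02, 9.26, 8.49 and 8.87 on laser arrays, 11.17, 10.41, 9.14 and 9.83 on bur arrays and 8.87, 8.45, 8.16 and 8.51 on control arrays. Bur stood clear of control, but bur array 3 lay below laser array 2. The rise was 3.11-fold (1.64 ± 0.36, limma adjusted p = 0.00879), and laser bone was 2.34-fold below bur bone (-1.23 ± 0.36, adjusted p = 0.0262). The laser against bur call was lost without laser array 1, 3 or 4 or bur array 2, with adjusted p of 0.0506 to 0.0741.

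Hk2, the inducible hexokinase that HIF can raise, was 2.90-fold higher in bur than in control bone (1.54 ± 0.25, limma adjusted p = 0.00188). Eno1 (enolase) was 2.11-fold higher, Pkm (pyruvate kinase) 2.15-fold and Pgam1 (phosphoglycerate mutase) 1.96-fold. Ldha, which makes lactate, was 1.67-fold higher (adjusted p = 0.0168), and Pgk1 1.69-fold. Of the 4 kept Pkm probes 2 were called for this rise, over a range of 0.38 to 1.103 on the log2 scale with the brightest the highest, and the authors' deposited values gave 0.65, still called. Of the 3 Ldha probes 2 were called, over 0.37 to 1.04. For all 6 the bur arrays lay above all control arrays. The calls of Gpi and Hk3 (0.70 and 0.84) were the least firm of the enzymes: bur and control arrays overlapped, and leaving out single arrays raised the adjusted p to 0.0778 for Gpi and 0.100 for Hk3. Both were lost with array weights (adjusted p = 0.102 and 0.144).

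Gapdh, often used as a reference gene in RT-PCR, was called in all 3 comparisons. It read 13.11, 13.01, 13.08 and 13.19 on laser arrays, 14.97, 14.79, 14.49 and 14.77 on bur arrays and 13.52, 13.57, 13.21 and 13.83 on control arrays. The 3 groups did not overlap, with bur highest and laser lowest. Bur was 2.33-fold above control (1.22 ± 0.15, limma adjusted p = 0.000475), and laser was 3.15-fold below bur (-1.65 ± 0.15, adjusted p = 1.27e-05). All 8 kept Gapdh probes were called in both, at 1.01 to 1.35 for bur against control and -1.65 to -1.03 for laser against bur. Laser against control was -0.43 ± 0.15 (adjusted p = 0.0403), and 1 of the 8 probes, the brightest, was called. Over the 8 probes that difference ran between -0.43 and 0.03. It was lost in 9 of the 12 fits without 1 array, with adjusted p up to 0.108, and under normexp background correction (-0.15, adjusted p = 0.368).

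The phosphofructokinase isoforms went separate ways. Pfkl, the liver type, rose 1.71-fold in bur bone (0.77 ± 0.15, limma adjusted p = 0.00432), and under normexp background correction the difference was 0.39 and still called. Pfkm, the muscle type, read 7.93, 7.94, 8.14 and 7.78 on laser arrays, 7.79, 8.16, 8.09 and 7.89 on bur arrays and 9.72, 9.14, 8.65 and 9.15 on control arrays. Laser and bur arrays shared 1 range, below every control array. Pfkm was 2.33-fold lower in laser bone (-1.22 ± 0.20, adjusted p = 0.000831) and 2.28-fold lower in bur bone (-1.19 ± 0.20, adjusted p = 0.00219), and laser against bur was -0.03 (interval -0.47 to 0.40).

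Pfkp, the platelet type, was lower in laser than in control bone. It read 10.21, 10.56, 10.45 and 10.71 on laser arrays, 10.94, 10.91, 10.91 and 10.66 on bur arrays and 11.55, 10.87, 11.37 and 11.71 on control arrays. Laser arrays lay below all control arrays, and bur arrays lay between and overlapped both. The laser difference was -0.89 ± 0.18 (limma adjusted p = 0.00314), and the bur difference of -0.52 was not called (adjusted p = 0.0637). Hk1 and Ldhb were not called in any comparison.

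**Figure D3:**
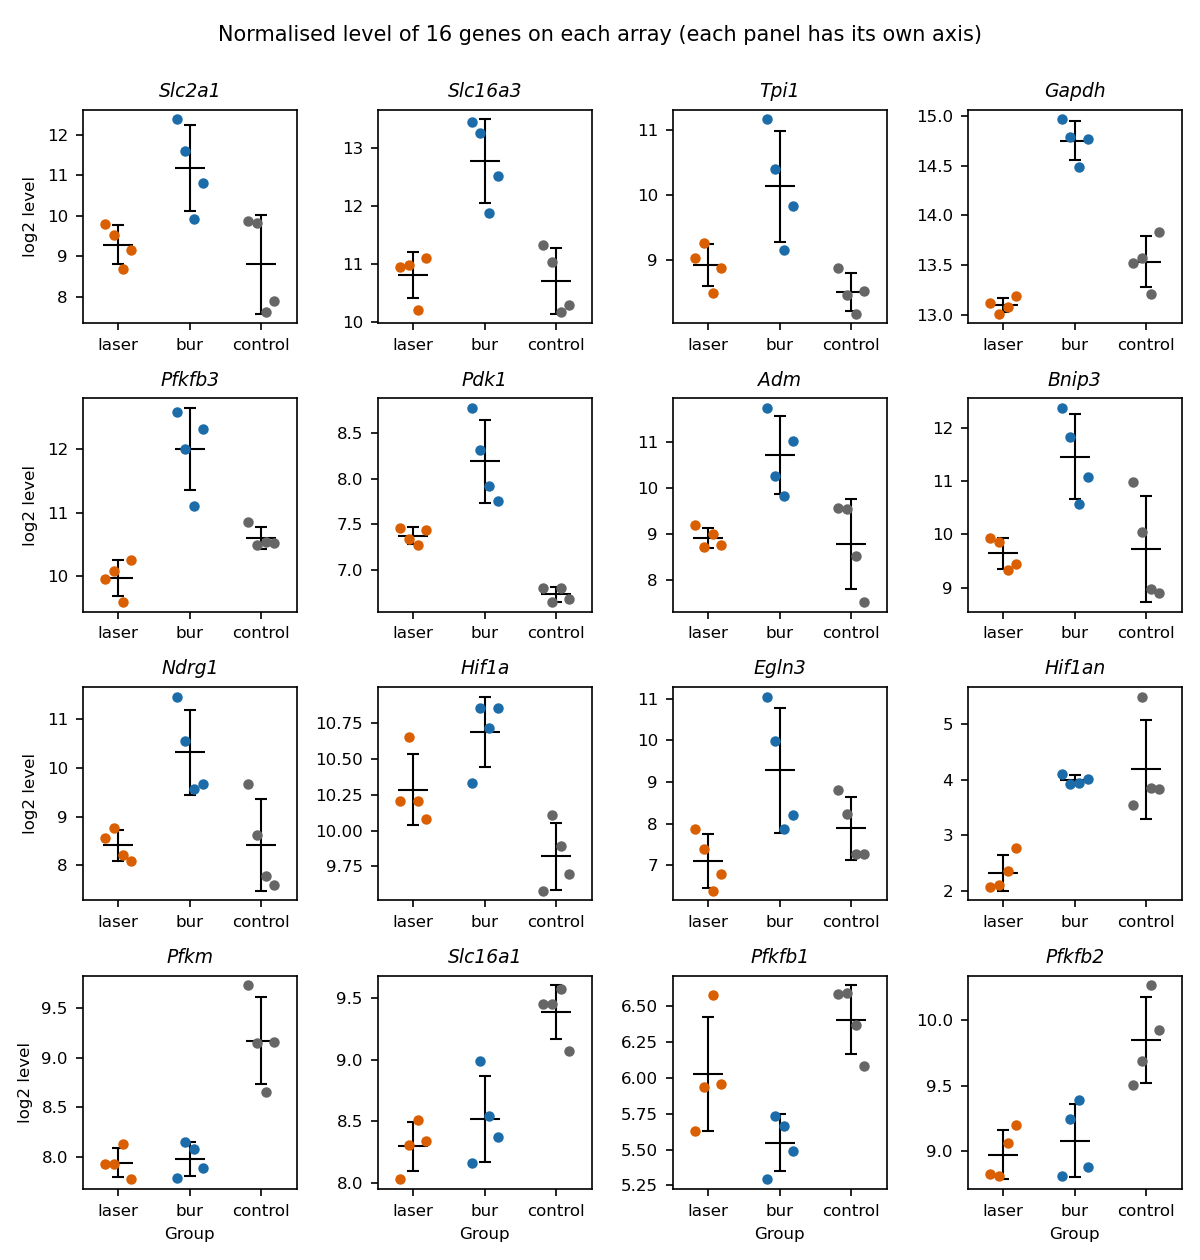
Normalised log2 level (y axes, a separate scale for each panel) of 16 genes on the 4 laser, 4 bur and 4 control arrays. Points are arrays in the order 1 to 4, the wide bar is the mean and the error bar the SD. In Slc2a1, Slc16a3, Pdk1, Adm and Gapdh all bur points lie above both other groups, and in Pfkm, Slc16a1 and Pfkfb2 all laser and bur points lie below control.

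The 4 Pfkfb genes split, 1 higher and 2 lower after drilling. Pfkfb3, the inducible form with strong kinase activity, read 9.95, 10.09, 9.60 and 10.26 on laser arrays, 12.58, 11.9998, 11.10 and 12.31 on bur arrays and 10.86, 10.49, 10.53 and 10.52 on control arrays. The groups did not overlap and stood in the order bur, control, laser. Laser bone was 4.07-fold below bur bone (-2.02 ± 0.28, limma adjusted p = 0.000301), and bur bone 2.63-fold above control (1.40 ± 0.28, adjusted p = 0.0051). Laser against control was -0.63 and not called (adjusted p = 0.101).

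Pfkfb1 read 5.63, 5.94, 6.58 and 5.96 on laser arrays, 5.29, 5.74, 5.67 and 5.49 on bur arrays and 6.58, 6.59, 6.37 and 6.08 on control arrays. Bur arrays lay below all control arrays, and laser arrays overlapped both. The bur difference was -0.86 ± 0.20 (limma adjusted p = 0.0122) and became -0.49 with normexp background correction, still called. With array weights it was -0.76 and not called (adjusted p = 0.0541). Pfkfb2 read 8.83, 8.81, 9.06 and 9.20 on laser arrays, 8.81, 9.24, 9.39 and 8.89 on bur arrays and 9.51, 9.69, 10.26 and 9.92 on control arrays. Laser and bur arrays again lay below every control array. It was 1.83-fold lower in laser bone (-0.87 ± 0.19, adjusted p = 0.00497) and 1.69-fold lower in bur bone (-0.76 ± 0.19, adjusted p = 0.0162). Of its 5 kept probes, 3 were called lower in laser and 2 in bur bone, and the mean of the 5 was not called in bur bone (-0.53, adjusted p = 0.0761). Pfkfb4 was not called.

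Among the 4 pyruvate dehydrogenase kinases was Pdk1, the HIF-induced form. By the brightest probe it was the single gene of the 41 called higher in both kinds of defect. P4ha1 (below) came near, and 1 of the 3 Eno1 probes was also called higher in both. Pdk1 read 7.46, 7.34, 7.27 and 7.44 on laser arrays, 8.78, 8.31, 7.92 and 7.76 on bur arrays and 6.80, 6.64, 6.80 and 6.68 on control arrays. The groups did not overlap, with laser between bur and control. Bur was 2.76-fold above control (1.46 ± 0.19, limma adjusted p = 0.000667), and laser was 1.76-fold below bur (-0.82 ± 0.19, adjusted p = 0.00855). Laser was 1.57-fold above control (0.65 ± 0.19, adjusted p = 0.0225). This last call held for 1 of 4 probes, whose differences ran between 0.11 and 0.65, and it was lost without laser array 1 or 4 or control array 4, at adjusted p of 0.0506 to 0.0578. Normexp background correction gave 0.33 (adjusted p = 0.0839), the mean of the 4 probes 0.38 (0.285) and the authors' deposited values 0.23 (0.317).

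Pdk4 read 4.57, 4.84, 5.46 and 4.37 on laser arrays, 5.36, 5.52, 5.80 and 5.36 on bur arrays and 5.42, 5.19, 6.26 and 5.44 on control arrays. The laser arrays were low but for array 3, which overlapped both other groups. Laser against control was -0.77 ± 0.27 (limma adjusted p = 0.0455), with adjusted p above the threshold in 10 of the 12 fits without 1 array. Normexp background correction gave -0.24 (adjusted p = 0.109) and the authors' deposited values -0.29 (adjusted p = 0.247). Pdk2 and Pdk3 were not called in any comparison, although all laser arrays lay below control for Pdk2 and above control for Pdk3 (adjusted p = 0.0843 and 0.0542).

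**Figure D4:**
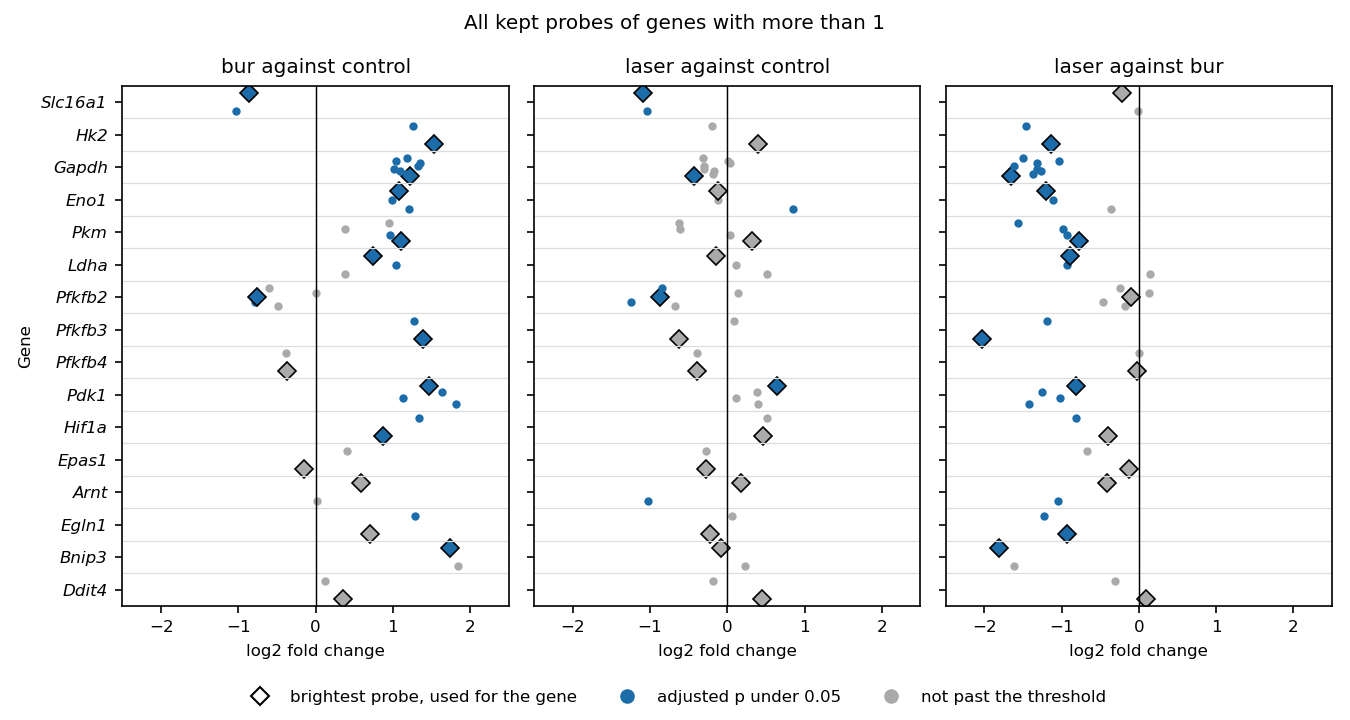
Log2 fold change (x axes) of every kept probe of the 16 genes with more than 1, for the 3 comparisons. Diamonds mark the brightest probe, which stands for the gene elsewhere, and blue marks an adjusted p under 0.05 with each probe as a feature. All 8 Gapdh probes and all 4 Pdk1 probes lie right of 0 for bur against control and left of 0 for laser against bur.

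In the HIF pathway itself 2 of 7 genes rose after drilling, Hif1a, the oxygen-regulated subunit, and Vhl, part of the ligase that sends it to destruction. That share, 28.6%, was near the 21.6% of all features called. Hif1a read 10.20, 10.65, 10.21 and 10.08 on laser arrays, 10.33, 10.85, 10.71 and 10.85 on bur arrays and 9.58, 10.11, 9.90 and 9.70 on control arrays. Bur arrays lay above all control arrays, and laser arrays overlapped both. The rise in bur bone was 1.82-fold (0.87 ± 0.18, limma adjusted p = 0.0055), and a second, dimmer probe gave 1.34. Laser against control was 0.46 (interval 0.08 to 0.85, adjusted p = 0.0592), and laser against bur -0.40 (interval -0.79 to -0.02, adjusted p = 0.109). The second probe was called lower in laser than in bur bone (-0.82, adjusted p = 0.00797), and the laser differences of Hif1a from control and from bur bone were each called in 6 of 24 alternatives. The rise of Vhl in bur bone was small, 0.41 (adjusted p = 0.0337), and it was not called with normexp background correction (0.26, adjusted p = 0.0828), with the authors' deposited values (0.21, 0.201), with array weights (0.38, 0.0651) or in 5 of the 12 fits without 1 array (adjusted p up to 0.0903). HIF activity is set mainly at the level of protein, which the arrays do not read.

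The prolyl hydroxylases Egln1 and Egln3, which hydroxylate HIF and so tag it for destruction and are themselves HIF targets, were lower in laser than in bur bone. Egln3 read 7.87, 7.39, 6.39 and 6.80 on laser arrays, 11.05, 10.00, 7.87 and 8.21 on bur arrays and 8.80, 8.24, 7.27 and 7.27 on control arrays. Bur arrays 1 and 2 stood far above the rest, and bur arrays 3 and 4 lay within the control range. Laser bone was 4.50-fold below bur bone (-2.17 ± 0.67, limma adjusted p = 0.0306), the largest difference of the 41 in that comparison. The call was lost without laser array 2, 3 or 4 or bur array 1 or 2, with differences of -2.26 to -1.58 and adjusted p of 0.0528 to 0.0832. Bur against control was 1.39 and not called (interval -0.08 to 2.85). Egln1 was -0.93 in laser against bur bone (adjusted p = 0.0146), and 0.70 in bur against control bone (adjusted p = 0.0618). Its bur difference was called in 8 of 24 alternatives, at 0.52 to 1.24 over all 24. The second Egln1 probe was called higher in bur bone (1.28, adjusted p = 0.00402), and the authors' deposited table gives 1.24 for that probe (adjusted p = 0.000446).

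Hif1an (FIH), the asparaginyl hydroxylase that curbs HIF, read 2.07, 2.10, 2.35 and 2.77 on laser arrays, 4.10, 3.92, 3.94 and 4.02 on bur arrays and 3.55, 5.49, 3.84 and 3.84 on control arrays. The laser arrays lay below all others. Its probe was dim, well above background on 2 laser, 3 bur and 3 control arrays, and it was the only one of the 41 not bright on all 12. Laser was 3.63-fold below control (-1.86 ± 0.36, limma adjusted p = 0.00221) and 3.19-fold below bur (-1.67 ± 0.36, adjusted p = 0.00499). The size rests on the background treatment: normexp correction gave -0.24 and -0.29, and the authors' deposited values -0.46 and -0.62, all still called. Epas1 and Arnt were not called by their brightest probes. For Arnt all 4 bur arrays lay above control (0.58, limma adjusted p = 0.0502), and 3 of 24 alternatives called this rise. The 2 Arnt probes disagreed: the dimmer was called lower in laser than in control bone (-1.03), where the brighter gave 0.17. In laser against bur bone 1 of the 2 was called lower, over -1.05 to -0.41.

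Of the 6 further HIF targets, 3 rose after drilling, and 0 of 6 were called in laser against control bone. Over all features 21.6% and 35.8% were called in these 2 comparisons. The 3 that rose were Adm, which encodes the vasodilator peptide adrenomedullin, Bnip3, a mitophagy receptor, and Ndrg1, a stress response gene. Adm read 9.20, 8.73, 8.999 and 8.78 on laser arrays, 11.74, 10.27, 9.83 and 11.03 on bur arrays and 9.58, 9.54, 8.54 and 7.53 on control arrays. Bur arrays lay above both other groups. The rise was 3.78-fold (1.92 ± 0.49, limma adjusted p = 0.0167), and laser was 3.46-fold below bur (-1.79 ± 0.49, adjusted p = 0.0174).

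Bnip3 read 9.93, 9.87, 9.34 and 9.44 on laser arrays, 12.37, 11.83, 10.56 and 11.07 on bur arrays and 10.99, 10.04, 8.97 and 8.90 on control arrays. Bur arrays lay above all laser arrays but overlapped control, through control array 1. The rise was 3.33-fold (1.73 ± 0.49, limma adjusted p = 0.0265), and laser was 3.52-fold below bur (-1.82 ± 0.49, adjusted p = 0.0164). The bur call was lost without bur array 1 or 2 or control array 3 or 4, with differences of 1.43 to 1.61 and adjusted p of 0.0642 to 0.0695.

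Ndrg1 read 8.57, 8.77, 8.21 and 8.08 on laser arrays, 11.47, 10.56, 9.58 and 9.68 on bur arrays and 9.67, 8.63, 7.78 and 7.60 on control arrays. Again control array 1 reached into the bur range. The rise was 3.74-fold (1.90 ± 0.50, limma adjusted p = 0.019) and was lost without control array 4 (1.63, adjusted p = 0.0518). Laser was 3.77-fold below bur (-1.92 ± 0.50, adjusted p = 0.0137).

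Ankrd37, Ddit4 and P4ha1 were not called in any comparison. P4ha1, a collagen prolyl hydroxylase, read 11.38, 11.17, 10.16 and 10.40 on laser arrays, 11.39, 11.02, 10.41 and 10.82 on bur arrays and 10.27, 10.56, 9.02 and 8.90 on control arrays. The laser and bur means were 10.78 and 10.91, that is 1.09 and 1.22 above control (limma adjusted p = 0.0608 and 0.0574). P4ha1 was called higher than control in 8 of 24 alternatives for laser and in 7 of 24 for bur bone. In the authors' deposited tables, by the same probe, it is 0.93 in laser bone (adjusted p = 0.00327) and 1.20 in bur bone (adjusted p = 0.00119), both past the threshold.

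The arrays within a group did not stand together. Of the 41 genes, 31 were highest on array 1 among the bur arrays. The 21 genes that rose lay on average 0.54 above the group mean on bur array 1 and 0.54 below it on bur array 3, while control arrays deviated by -0.18 to 0.28. Slc2a1, Egln1, Egln3, Bnip3, Ndrg1 and P4ha1 read higher on arrays 1 and 2 than on arrays 3 and 4 in each of the 3 groups. These counts and means were not taken over all features. A trait of these genes and a trait of the arrays therefore cannot be told apart. Without bur array 1 and control array 1, an alternative added after the values were seen, 20 of the 41 were called for bur against control, 9 for laser against control and 22 for laser against bur. Over all features it called 3474, 7541 and 6310, against 4491, 7446 and 6178 with all arrays.

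Other genes of the same pathways, from lists chosen with earlier results of these data known, gave mixed counts. Their counts are read against the 21.6% of all features called for bur against control, 35.8% for laser against control and 29.7% for laser against bur. Of 28 further HIF targets measured, 12 were higher and 2 lower in bur than in control bone, 6 higher and 2 lower in laser than in control bone, and 1 higher and 9 lower in laser than in bur bone, so that 50%, 28.6% and 35.7% were called. Mif, a cytokine gene, followed the glycolytic enzymes, with 1.24 in bur against control, 0.10 in laser against control and -1.14 in laser against bur (limma adjusted p = 0.000389, 0.617 and 0.000152). Bnip3l, a relative of Bnip3 that clears mitochondria from maturing red cells, was lower in both kinds of defect than in control bone, -0.92 in bur and -0.95 in laser bone.

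Of 16 further enzymes of glycolysis and glycogen, 4 were higher and 1 lower in bur than in control bone, and 1 was higher and 5 lower in laser than in bur bone. Shares of 31.2% and 37.5% were called. Gys1, glycogen synthase, was 0.82 in bur against control and -1.14 in laser against bur. Bpgm, the enzyme of red cells that makes 2,3-bisphosphoglycerate, fell in bur bone (-1.18, limma adjusted p = 0.00351). Pygl, the liver type of glycogen phosphorylase, was higher in laser than in either other group, by 1.08 against bur and 0.83 against control. Of 8 further hexose transporters, 2 rose and 1 fell after drilling (37.5% called). Slc2a6 (GLUT6), known from activated macrophages, was 1.68 in bur against control and -1.63 in laser against bur, and Slc2a9, a urate transporter, 0.87 and -0.95. Slc2a4 (GLUT4), the insulin-responsive transporter, fell by 1.26 in bur bone.

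Of 18 genes that handle pyruvate and lactate, 3 were higher and 1 lower in bur than in control bone, and 3 higher and 3 lower in laser than in control bone. The shares called, 22.2% and 33.3%, were near those of all features. Pdha1, a subunit of pyruvate dehydrogenase, was higher in laser bone than in bur (1.25) and in control (1.37) bone. Pc, pyruvate carboxylase, was lower than control in both, -1.03 in bur and -0.67 in laser bone. Of 11 further genes of the HIF pathway and the VHL complex, 0 rose and 1 fell after drilling (9.09% called), Cited4 (-1.22, limma adjusted p = 0.0422), a coactivator-binding protein whose probe was above background on 2 of 4 bur arrays. Of 8 pentose phosphate enzymes 1 rose and 1 fell after drilling (25% called, near the background), and of 16 tricarboxylic acid cycle enzymes 0 rose and 2 fell (12.5% called). In laser against control bone the tricarboxylic acid cycle enzymes gave 1 higher and 6 lower, 43.8% called.

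Lists of markers of other cells gave patterns that differed from list to list. Their counts are read against the shares called of all features. These were 21.6% for bur against control, 35.8% for laser against control and 29.7% for laser against bur. The mean log2 level of 12 monocyte and macrophage markers was 9.18 to 9.69 on laser arrays, 10.08 to 10.36 on bur arrays and 8.77 to 9.28 on control arrays, and 8 of the 12 were called higher in bur than in control bone. That of 12 erythroid markers was 11.08 to 11.34 on laser arrays, 10.39 to 11.44 on bur arrays and 12.22 to 12.71 on control arrays. Of these 12, 11 were called lower than control in bur and 11 in laser bone. That of 11 neutrophil markers was 10.08 to 11.15 on laser arrays, 9.59 to 10.40 on bur arrays and 9.96 to 11.35 on control arrays, with 1 called higher and 2 lower in bur bone. That of 9 neural and myelin markers reached 7.81 and 7.39 on control arrays 1 and 4, above the 6.52 of the highest bur or laser array. Without those 2 control arrays the bur calls of Adm, Aldoa, Hif1a, Hk3, Slc2a1 and Vhl were lost (limma adjusted p of 0.0519 to 0.0898). The laser against control calls of Gapdh, Pdk1 and Pdk4 were lost as well (0.0852 to 0.238). Calls over all features fell too, from 4491 to 2779 for bur and from 7446 to 5383 for laser against control. The differences grew for Slc2a1 (2.38 to 2.47), Hk3 (0.84 to 1.01), Vhl (0.41 to 0.5) and Pdk4 (-0.77 to -0.92). They shrank for Adm (1.92 to 1.68), Hif1a (0.87 to 0.68) and Gapdh (-0.43 to -0.29). Aldoa (0.84 to 0.82) and Pdk1 (0.65 to 0.66) hardly moved. Bone cell markers also differed between the groups. The mean of 8 osteoblast markers was 12.33 to 12.66 on laser arrays, 11.81 to 12.20 on bur arrays and 11.20 to 11.84 on control arrays, with 4 called higher in laser than in control bone, 3 higher in laser than in bur bone and 1 higher in bur than in control bone. That of 6 osteocyte markers was 7.90 to 9.28 on laser arrays, 8.55 to 9.20 on bur arrays and 7.02 to 8.19 on control arrays, with 3 called higher in laser and 2 in bur than in control bone. The part of these cells in the differences of the 41 genes was not tested.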

How the data were processed

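The 41 genes, the pathway and marker lists and the alternatives were chosen with earlier results of these data known. Each of the 12 arrays took 1 sample in 1 colour: 200 ng of total RNA was copied to Cy3-labelled cRNA, as the labels' protocols state. The scanner files, as deposited, hold a spot's intensity as read by Agilent Feature Extraction (version 11.0.1.1, from the submitters' processing notes). Per the file headers, that software also subtracted the background to give the processed signal. The expression table that the authors deposited is on a log2 scale and its title names quantile normalization. Their comparison tables give, as deposited, a log2 fold change, a p-value and its adjusted form for each probe. How these tables were computed is not given in the sources used here.

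Control spots and spots that the software marks as outliers were dropped. The log2 of the processed signal was averaged over the spots of a probe and quantile normalised between arrays. Probes well above background on at least 4 of 12 arrays were kept (27194 of 45598), and a gene was read by its brightest kept probe. Gene names are those of the array files: 16329 of the 20789 features had a symbol and 4460 are named by an accession or probe ID. All 12 arrays entered 1 limma fit (limma 3.58.1, R 4.3.3) without a replicate term, and p-values were adjusted by Benjamini and Hochberg over all features of a comparison. A moderated test from a fit across all genes stands behind every p given, except those quoted from the authors' comparison tables. The procedure was tested on simulated data. Arrays hold no counts, and their number limits the precision.

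Named genes are, in each comparison, the 6 called members with the highest and the 6 with the lowest log2 fold change, with Hif1a and Slc2a1. Of each pathway list the counts are given with up to 3 genes of smallest p. One gene that this rule picks is not reported here. Gapdh, P4ha1 and other members described beyond this rule were chosen after their values were seen. Alternatives changed the background correction, scaling, filter, probe choice, arrays in the fit, array weights, a replicate block, the authors' values, and left out each array in turn.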

Additional observations from a re-analysis of the deposited data

Results flagged for a closer look

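In 5 of 123 sets of 4 arrays (41 genes in 3 groups), 1 array stood apart from the other 3 of its group by more than Dixon's limit, and chance alone flags about 1 set in 20. Hk2 read 6.99 on laser array 3, against 7.60 to 7.70 on the other laser arrays. Ddit4, a stress-induced inhibitor of mTOR signalling, read 8.95 on laser array 4, against 10.14 to 10.30 on the other 3. Pfkp read 10.66 on bur array 4, against 10.91 to 10.94. Pfkfb3 read 10.86 on control array 1, against 10.49 to 10.53, and Hif1an read 5.49 on control array 2, against 3.55 to 3.84.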

How the results depend on the processing

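No call of the 41 genes changed direction under the alternatives run. Of the 25 called for bur against control, 13 were called in every alternative that tested them, of the 22 for laser against bur 17, and of the 8 for laser against control 5. The 17 and the 5 include Hif1an, called in 23 alternatives. It was left out of the alternative that asks for signal above background on all 12 arrays. Fitting bur and control arrays alone left 16 of the 41 called and 2898 of all features, against 25 and 4491. Without the filter on dim probes more features were tested, and 6938 of 34912 were called for bur against control, with 25 of the 41. Without control arrays 1 and 4 together 2779 of 20789 were called, with 19 of the 41. For laser against control, array weights gave 16 of the 41 and leaving out control arrays 1 and 4 together gave 5, against 8. Leaving out 1 array at a time gave 20 to 26 of the 41 for bur against control, 5 to 11 for laser against control and 19 to 23 for laser against bur. Over all features the same fits gave 3323 to 4324, 5767 to 7695 and 4712 to 6435, in that order. The cause of these shifts was not tested. Fits that leave out arrays also rest on fewer arrays. Deviations of same-numbered arrays correlated at -0.07 to 0.31, with a median of 0.14. For arrays of other numbers in other groups this was -0.40 to 0.22, with a median of -0.03. On average 8 of 12 arrays correlated best with the arrays of their own number. The labels do not say whether the numbers mark pairs, and the main fit had no replicate term. With the replicate block 27, 10 and 25 of the 41 were called for bur against control, laser against control and laser against bur. Over all features it called 4837, 7967 and 6543. The bur call of Hk3 was lost with it (limma adjusted p = 0.0602). Dim probes such as that of Hif1an limit what the arrays can size.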
